A study of Mus musculus with 12 samples.

Results

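Transcript levels were compared between podocytes of Nsd2 knockout mice and of floxed control mice at 20 weeks of age, the earlier of the 2 ages in a series of 12 libraries. The members of this comparison are the 6 libraries labelled with that age, 3 per genotype, and all 23829 genes in their count table. Knockout mice carried the genotype Cre+/Nsd2fl/fl and control mice Cre-/Nsd2fl/fl, so both carried the floxed alleles and only the knockouts carried Cre, which the study's design text places in podocytes. All 6 libraries came from the diabetic HFD/STZ model, a high-fat diet with streptozotocin, and hold RNA of primary podocytes. The promoter that drives Cre, the floxed exons and how the cells were isolated remain unstated, not given in the sources used here. No label ties the 3 libraries of a group to separate animals, and p-values therefore measure only how far these libraries spread, which may be technical.

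Nsd2 encodes an enzyme that dimethylates lysine 36 of histone H3, a mark spread over active chromatin. Podocytes are the epithelial cells on the outer face of the glomerular capillaries, joined by slit diaphragms, and they share an origin with the parietal cells that line Bowman's capsule. Mesangial cells, which are contractile and lay down matrix, sit between the capillaries, and pericyte-like cells lie at the vascular pole.

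Levels are counts-per-million on scaled library sizes (CPM), and fold changes are log2 of knockout over control with their standard error (SE). The term called marks genes with a p below 0.05, adjusted after Benjamini and Hochberg, in edgeR's quasi-likelihood test over the 14853 genes with enough counts. Of these, 711 were called higher in the knockouts (4.79%) and 762 lower (5.13%), together 9.92%. The median log2 fold change of all genes tested was 0.01. In all 1473 called genes the control and knockout libraries did not overlap, which held for 32.2% of all genes tested. Separate groups mentioned for a called gene below are therefore description and add no support to its call. A call survived the removal of each of the 6 libraries in 352 genes, 174 higher and 178 lower, and genes are named from these unless the text says otherwise. Left out in the order control 1, 2, 3 and knockout 1, 2, 3, the libraries left 262, 267, 482, 780, 349 and 286 genes called higher and 255, 335, 579, 1243, 314 and 267 called lower. This order is called library order below.

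Total counts ran from 35664511 to 37751602 per library, and a count of 0 allows a level of up to 0.0778 to 0.0853 CPM, taking 3 counts as the limit for counting error only. The first principal component held 60.2% of the variance, with the controls at -38.9 to -38.62 and knockouts 1, 2 and 3 at 13.98, 54.38 and 47.93. Knockout 1 thus stood apart from knockouts 2 and 3, nearer the controls on this component, and leaving it out raised the number of genes called lower to 1243. Across genes, which are not independent, its log2 CPM correlated at 0.9655, 0.9582 and 0.9758 with controls 1, 2 and 3 and at 0.9696 and 0.977 with knockouts 2 and 3.

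The labelled cell type was checked against markers. The 10 podocyte markers summed to 906, 587 and 449 CPM in controls 1 to 3 and to 1649, 2288 and 2230.0 CPM in knockouts 1 to 3, and 6 of them were called higher. The 7 parietal markers summed to 2244, 5217 and 3511 CPM in the controls against 1744, 363 and 406 CPM in the knockouts, with 4 called lower. All 7 mesangial and pericyte markers were called higher, with sums of 1758, 1783 and 2104 CPM in the controls against 5060.0, 6300.0 and 5414 CPM in knockouts. A wider list of pericyte and mesangial genes was less uniform. Of its 13 genes tested 6 were called higher and 1 lower, and 4 had a log2 value below 0. Fibroblast markers summed to between 172 and 674 CPM in controls and between 534 and 981 CPM in the knockouts, ranges that overlap. Endothelial markers stayed between 55.2 and 96.3 CPM and leukocyte markers between 11.7 and 93.1 CPM, and those of the distal tubule, collecting duct, Schwann cells and red blood cells were under 3 CPM. The 3 mesothelial markers summed to 68.7, 99.7 and 44.1 CPM in the controls against 5.86, 3.35 and 1.99 CPM in the knockouts, and the 2 tested were called lower. No marker was at 0 in all libraries. The podocyte, parietal, mesangial, mesothelial and, at lower levels, proximal tubule sums thus separated the genotypes in every library, and in bulk RNA a change in the number of cells of a type and a change in RNA per cell cannot be told apart. What part they have in the gene groups below was not tested.

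**Figure D1:**
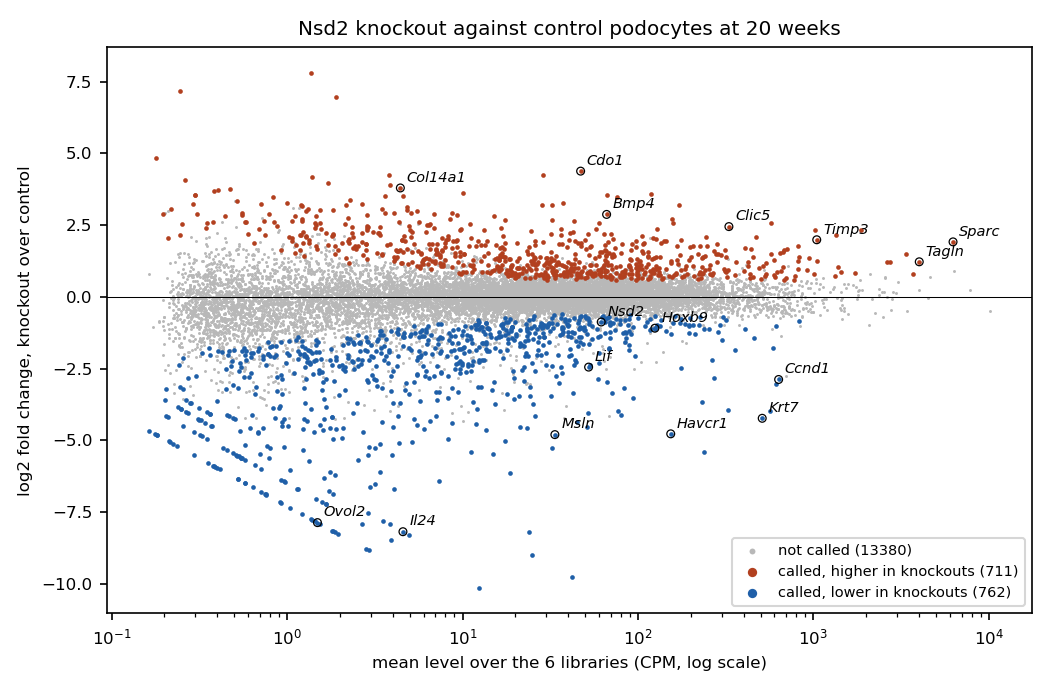
Each point is 1 of 14853 genes tested, with its mean level over the 6 libraries in CPM on a log axis and its log2 fold change of knockout over control. The 711 genes called higher lie mostly at moderate and high levels, and the 762 called lower reach the lowest levels and the largest changes.

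The called genes differed in level and size between the directions. Among those matched to the annotation, genes called higher had a median level of 30.2 CPM and a median absolute log2 change of 1.36, and genes called lower had 6.68 CPM and 2.06, against 22.6 CPM and 0.31 for all genes. Of the genes called lower, 175 changed by at least 16-fold in the fit, against 9 of those called higher. Genes called higher took 5.09% to 5.99% of all normalised counts in the controls and 12.2% to 14.3% in the knockouts. Genes called lower took 3.2% to 4.19% in the controls and 1.11% to 1.45% in the knockouts. Among long intergenic noncoding RNAs 9 of 244 were called higher and 34 lower, and among protein-coding genes 664 and 610 of 13035.

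The targeted gene itself was at 94.2, 66.6 and 79.0 CPM in controls 1 to 3 and at 51.7, 34.1 and 45 CPM in knockouts 1 to 3. It was lower in each knockout library, without overlap (log2 -0.88, SE 0.21, adjusted p = 0.0402), and was reduced rather than lost. This call held without knockout 1 alone: the adjusted p was 0.164, 0.0729 and 0.0903 without controls 1, 2 and 3, and 0.0903 and 0.111 without knockouts 2 and 3. Nsd2 lies on chromosome 5, 33820725 to 33897975, plus strand (GRCm38, GENCODE M21), and counts per gene do not show the floxed part. Of the 25 tested writers, erasers and readers of lysine 36 methylation, Nsd2 was the only gene called, and the median of the list was 0.00. Of 32 other chromatin genes none was called higher and 2 were called lower, both high-mobility-group A genes. Over all genes tested 4.79% were called higher and 5.13% lower, so neither list had clearly more calls than the background. Hmga2, a DNA-bending protein of embryonic and growing tissue, was at 38.6, 54.4 and 48.9 CPM in the controls against 18.6, 8.65 and 9.18 CPM in the knockouts (log2 -1.96, SE 0.32, adjusted p = 0.0103), with an adjusted p of 0.0503 without control 1. Hmga1 went from 124, 129 and 123 CPM to 69.4, 70.9 and 42.1 CPM (log2 -1.05, SE 0.22, adjusted p = 0.0238) and passed the threshold without any 1 knockout library but not without control 1, 2 or 3 (adjusted p 0.0761, 0.088 and 0.0525).

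Genes of the same chromosomal neighbourhood moved together among the Hox genes, the clustered homeobox factors that record position along the body axis. All 8 tested genes of the Hoxb cluster, Hoxb2 to Hoxb9, were lower in the knockouts, and no other Hox cluster had a gene called lower. Hoxb2 was at 76.9, 93.6 and 71.1 CPM in the controls and 29.8, 28.9 and 28.2 CPM in the knockouts, which were nearly equal among themselves (log2 -1.47, SE 0.17, adjusted p = 0.00338). Hoxb4 went from 37.9, 30.7 and 33.5 CPM to 14.8, 10.0 and 10.0 CPM (log2 -1.55, SE 0.22, adjusted p = 0.00645). Hoxb6 had 103, 59.0 and 77.1 CPM and 27.9, 25.9 and 23.4 CPM (log2 -1.63, SE 0.23, adjusted p = 0.00626). In each of these the lowest control lay above the highest knockout by a wide margin. Hoxb9 had 193, 166 and 151 CPM in the controls against 88.9, 82.4 and 68.0 CPM in the knockouts (log2 -1.09, SE 0.18, adjusted p = 0.00993).

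These 4 genes kept their call without each library. Hoxb3 and Hoxb5 (log2 -0.97 and -1.61) lost it without control 1, knockout 2 or knockout 3, where adjusted p was between 0.0544 and 0.109. Hoxb7 and Hoxb8 (log2 -0.75 and -1.30) kept it without knockout 1 alone, with adjusted p between 0.0585 and 0.152 otherwise. In other clusters 4 genes went the other way: Hoxa10 and Hoxa11 (log2 0.87 and 1.57) and Hoxc8 and Hoxc9 (log2 1.10 and 0.85) were called higher. Hoxa11 lost its call without control 1 or 2 (adjusted p 0.0556 and 0.0519), and Hoxa10, Hoxc8 and Hoxc9 each lost it without any library but knockout 1 (adjusted p between 0.0554 and 0.138). The 6 tested Hoxd genes had log2 values between -0.66 and -0.11 and none was called. In library order the list had 4, 6, 6, 8, 4 and 4 genes called lower in place of 8, and 0, 0, 1, 5, 1 and 1 called higher in place of 4.

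The 4 named Hoxb genes lie on chromosome 11, from 96271457 for the start of Hoxb9 to 96354012 for the end of Hoxb2, all on the plus strand (GRCm38, GENCODE M21). Hoxb5 and Hoxb6 lie within the antisense gene Hoxb5os, and Hoxb2 and Hoxb3 overlap Hoxb3os. With the strand setting of the counting unknown, not given in the sources used here, reads of these partners cannot be told apart. The antisense transcript Hoxb5os had 2.72, 3.72 and 2.74 CPM in the controls against 2.71, 4.31 and 3.24 CPM in knockouts and was not called (log2 0.16, SE 0.31, adjusted p = 0.808), while Hoxb3os was called lower (log2 -1.33, SE 0.29, adjusted p = 0.029). The call of Hoxb3os was kept without control 3 or knockout 1, and its adjusted p was between 0.074 and 0.0982 without the other 4 libraries.

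**Figure D2:**
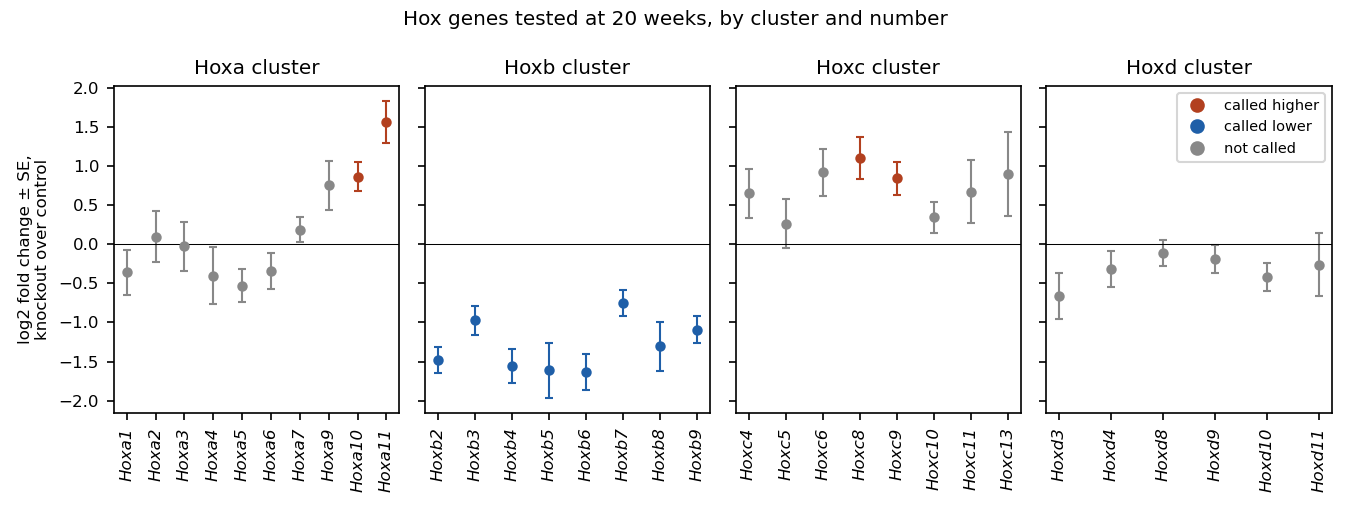
Log2 fold change of knockout over control with its SE for each tested Hox gene, by cluster and in order of gene number. All 8 Hoxb genes lie between -1.63 (Hoxb6) and -0.75 (Hoxb7), Hoxc genes all lie above 0, and Hoxd genes all lie below it without a call.

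Transcription factors of epithelia included 12 that fell and none that rose, of 38 tested, and the list had a median of -1.66. Ovol1 and Ovol2, zinc-finger factors that keep cells epithelial, fell to the limit of detection. Ovol2 had 4.87, 1.38 and 2.66 CPM in controls, while knockout 1 held 1 read and knockouts 2 and 3 held 0. That is 339 counts against 1, a ratio of 320.1 whose exact 95% counting interval runs from 57.1 to 12680.0 (adjusted p = 0.00355). Ovol1 had 89 counts against 1, a ratio of 84.1 with an interval of 14.7 to 3356. Emx1, a homeobox factor, had 86 counts against 1, a ratio of 81.2 with an interval of 14.2 to 3245. Each of these 3 is a low-level gene that was detected in every control library.

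Pax2, a factor of the nephron lineage kept by parietal cells, was at 41.2, 27.7 and 40.6 CPM in the controls against 13.5, 7.38 and 5.23 CPM in the knockouts (log2 -2.07, SE 0.36, adjusted p = 0.0121). Its adjusted p was 0.0707 without control 1 and 0.0554 without knockout 2. The epithelial factors Grhl2 and Ehf show how knockout 1 differed. Grhl2 was at 31.8, 12.4 and 25.5 CPM in controls but at 20.9, 0.908 and 1.85 CPM in knockouts 1 to 3, and Ehf at 68.6, 38.0 and 53.1 CPM against 23.8, 0 and 3.67 CPM. Knockout 1 lay within the control range for Grhl2 and below it for Ehf, and neither passed the test (adjusted p = 0.396 and 0.261). The count of 12 became 3, 6, 12, 28, 4 and 5 in library order, so that without knockout 1 most of the list was called lower.

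Few factors of mesenchymal cells were called. None of the 8 factors tied to epithelial-mesenchymal transition was called: Zeb1, Zeb2, Snai1, Snai2 and Twist1 had log2 values of 0.31, 0.47, 0.46, 0.78 and 0.09. All 8 values were above 0, with a median of 0.63, and members not named here reached 1.67. Of 34 mesenchymal factors 3 were called higher, Foxs1, Nr2f1 and Gli1, and none kept its call without each library. Their count was 2, 0, 2, 4, 0 and 0 in library order, and 7 with DESeq2.

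Of 36 tight junction genes, 8 were lower and 3 higher, with a median of -0.90, and claudins were called in both directions, 3 lower and 1 higher of 13. Crb3, a polarity protein of the apical membrane, was at 22.5, 53.2 and 32.4 CPM in the controls against 3.51, 3.32 and 2.42 CPM in the knockouts (log2 -3.54, SE 0.36, adjusted p = 0.00272). Tjp3, a scaffold at tight junctions, was at 7.96, 9.34 and 6.67 CPM against 2.24, 2.16 and 2.27 CPM (log2 -1.84, SE 0.26, adjusted p = 0.00626). Against this, Cldn15, a claudin that forms a pore for cations, rose from 4.43, 5.10 and 3.82 CPM to 17.6, 27.8 and 21.0 CPM (log2 2.31, SE 0.25, adjusted p = 0.00292). Jam2, a junctional adhesion molecule of vascular cells, rose from 4.98, 5.18 and 6.19 CPM to 16.1, 16.7 and 22.5 CPM (log2 1.76, SE 0.23, adjusted p = 0.00475). None of these 4 genes overlapped between the groups, as no called gene did. The number of tight junction genes called lower was 2, 4, 6, 18, 2 and 2 in library order.

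Perp, a desmosome protein and p53 target, was at 119, 239 and 157 CPM in the controls against 17.3, 12.7 and 15.2 CPM in the knockouts, which lay close together (log2 -3.51, SE 0.29, adjusted p = 0.00241). Only 2 of 30 cadherin and desmosome genes were called lower and 1 higher, and without knockout 1 the number lower was 13. Among 9 keratins 5 were lower. Krt20, a keratin of superficial epithelium that also appears in injured tubules, fell from 20.2, 40.4 and 25.2 CPM to 3.51, 1.39 and 1.62 CPM (log2 -3.72, SE 0.44, adjusted p = 0.00383). The simple keratin Krt18 had 803, 1620.2 and 751 CPM in the controls against 133, 36.5 and 31.6 CPM in the knockouts (log2 -3.98, SE 0.63, adjusted p = 0.00948). Vim, the intermediate filament of mesenchymal cells and of podocytes, rose from 1825, 1297 and 1808 CPM to 3978, 4091 and 3357 CPM (log2 1.21, SE 0.19, adjusted p = 0.00893). Keratins called lower numbered 3, 3, 5, 7, 3 and 3 in library order. The parietal marker sum given above was also lower in every knockout, but it shares genes with these lists. It contains Krt7, Krt8, Krt18 and Krt19 of the keratin list and Cldn1 of the tight junction list. A common direction is therefore partly fixed by the shared genes.

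Podocyte genes were higher in the knockouts more often than the background of 4.79%: 20 of 48 tested, with 1 lower and a median of 0.78. By role, 3 of 10 slit diaphragm genes, 10 of 19 foot process and surface genes, 3 of 9 transcription factors and 4 of 10 secreted factors were higher. Clic5, a chloride channel protein tied to ezrin and the foot-process surface, had 151, 83.5 and 71.9 CPM in the controls against 403, 571 and 699 CPM in the knockouts (log2 2.45, SE 0.33, adjusted p = 0.00574). Knockout 1 was the lowest knockout and still above every control. Arhgap24, a Rac-inactivating protein of podocytes, went from 37.3, 29.3 and 29.4 CPM to 61.4, 95.5 and 88.9 CPM (log2 1.36, SE 0.22, adjusted p = 0.0094). The membrane collagen chain Col4a5, mutated in Alport syndrome, went from 163, 98.7 and 132 CPM to 318, 347 and 335 CPM (log2 1.34, SE 0.20, adjusted p = 0.00826).

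Dag1, the dystroglycan that ties foot processes to the membrane, was at 479.6, 258 and 246 CPM in the controls against 955, 1161 and 966 CPM in the knockouts (log2 1.65, SE 0.28, adjusted p = 0.0112). Sema3g, a semaphorin secreted by podocytes, was at 62.8, 49.9 and 25.8 CPM and 177, 174 and 161 CPM (log2 1.89, SE 0.30, adjusted p = 0.00982). Nephrin did not follow: Nphs1 was low in all libraries, at 7.49, 4.85 and 1.45 CPM in the controls against 1.72, 7.35 and 5.4 CPM in the knockouts, with overlapping groups (log2 0.07, SE 0.65, adjusted p = 0.968). Cdkn1c, a cell cycle inhibitor of quiescent podocytes, was the gene that fell, from 37.5, 90.2 and 42.0 CPM to 9.68, 17.6 and 14.1 CPM (log2 -2.03, SE 0.38, adjusted p = 0.0162), with an adjusted p of 0.0724 without knockout 3. Podocyte genes called higher numbered 16, 6, 10, 20, 8 and 8 in library order.

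**Figure D3:**
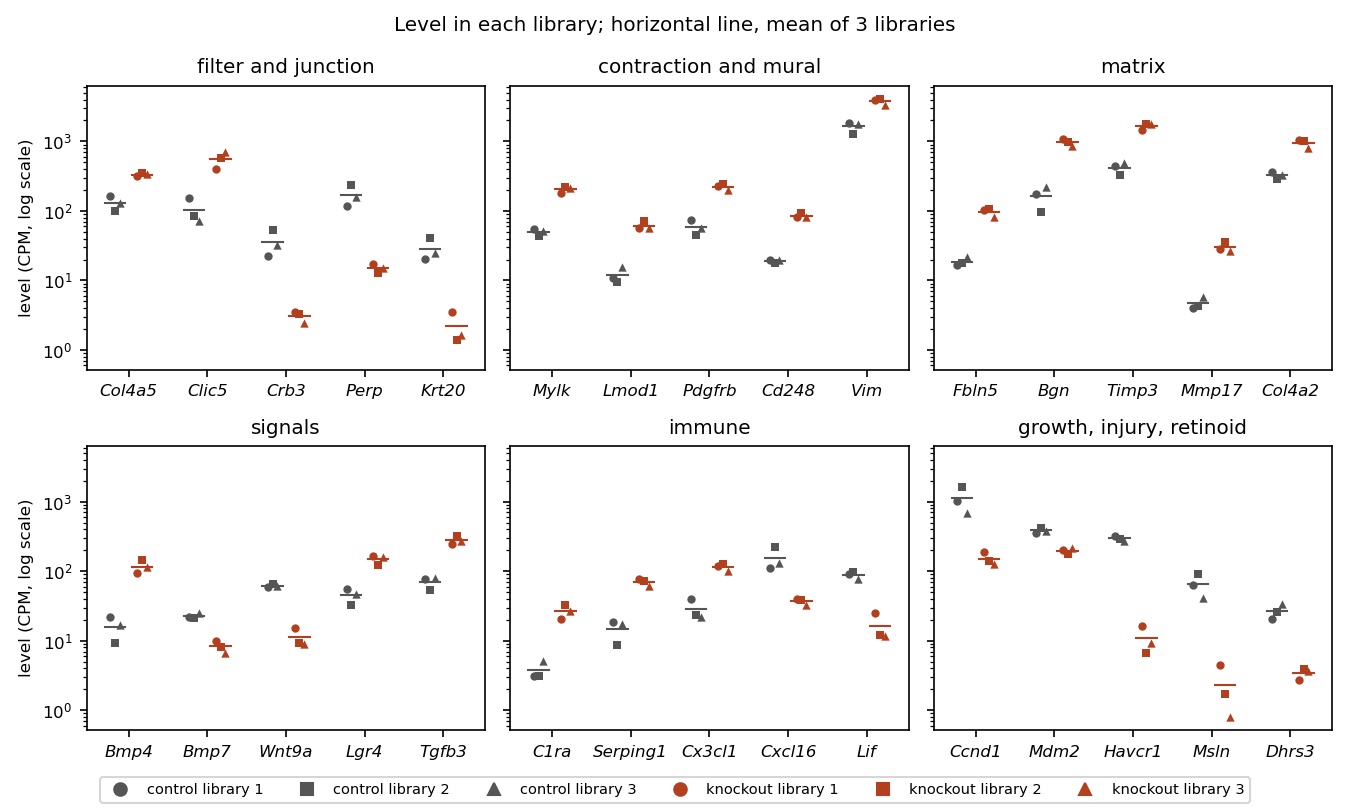
Level in CPM on a log axis of 30 genes, 5 per panel, with 1 symbol per library and a line at the mean of each group of 3. In each gene the 3 control and the 3 knockout libraries occupy separate ranges, as they do in every called gene.

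Among the contractile genes of smooth muscle and mesangium all calls were higher. Of 45 tested, 17 rose and none fell, with a median of 0.78. The 7 mesangial and pericyte markers moved the same way, but Acta2, Myh11, Rgs5 and Notch3 among them also belong to this list. Mylk, the kinase that starts smooth muscle contraction, had 55.8, 43.5 and 51.2 CPM in the controls against 180.4, 221 and 213 CPM in the knockouts (log2 2.03, SE 0.17, adjusted p = 0.00241). Lmod1, which nucleates actin filaments in smooth muscle, had 10.9, 9.42 and 15.5 CPM and 57.1, 70.7 and 56.0 CPM (log2 2.36, SE 0.23, adjusted p = 0.00272). Synpo2, an actin-bundling relative of synaptopodin, went from 1.01, 1.13 and 1.37 CPM to 8.80, 8.43 and 9.67 CPM (log2 2.93, SE 0.27, adjusted p = 0.00259). All 3 had groups far apart. Of 18 genes that control the contractile signal 5 were called higher and none lower. Gucy1a1, a subunit of the nitric oxide receptor, rose from 9.70, 6.56 and 6.98 CPM to 23, 22.4 and 32.0 CPM (log2 1.74, SE 0.24, adjusted p = 0.00648). Rgs4, which shortens G protein signals, rose from 3.50, 3.47 and 4.16 CPM to 9.60, 13.0 and 14.1 CPM (log2 1.72, SE 0.25, adjusted p = 0.0069). The count of 17 was 10, 10, 13, 18, 13 and 12 in library order.

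Myocd, the coactivator of serum response factor in smooth muscle, was at 4.72, 1.18 and 2.77 CPM in the controls against 9.57, 9.45 and 9.44 CPM in knockouts and did not pass the test (adjusted p = 0.051). Serum response factor binds the CArG box, so this motif was searched on both strands in the RefSeq promoters (GRCm38.p6), which run from 250 bases before to 50 after each start. It was found in 17 of the 533 called-higher genes with a promoter in the table (3.19%), in 2.1% of those called lower and in 1.65% of all genes tested, and in 1.81% of all promoters. Of the contractile genes tested 5 of 38 held it (13.2%), and of those called higher 1 of 13, Myl9, which encodes the regulatory light chain. A box also lies 108 bases before the start of Cbr2 (log2 3.00, adjusted p = 0.00286), a called-higher gene of the retinoid list. The window of Cbr2 is not shown. Vcl and Fermt2, the adhesion proteins vinculin and kindlin-2, Lgr4, a receptor of R-spondins, and Robo1, a receptor of Slit ligands, are the other called-higher list members described here with a box before the start. Their windows are shown to let the boxes be compared, 5′ to 3′ on the strand of the gene, with the box in capitals.
Myl9, chr2:156775258-156775357, plus strand: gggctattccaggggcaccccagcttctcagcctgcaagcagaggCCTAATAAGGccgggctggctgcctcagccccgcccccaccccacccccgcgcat
Vcl, chr14:20929148-20929225, plus strand: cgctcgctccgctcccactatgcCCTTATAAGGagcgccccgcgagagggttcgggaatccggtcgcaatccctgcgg
Fermt2, chr14:45530215-45530314, minus strand: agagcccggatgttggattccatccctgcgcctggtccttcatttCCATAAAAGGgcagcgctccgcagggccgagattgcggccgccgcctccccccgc
Lgr4, chr2:109917456-109917555, plus strand: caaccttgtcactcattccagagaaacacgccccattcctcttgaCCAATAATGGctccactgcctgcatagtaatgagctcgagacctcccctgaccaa
Robo1, chr16:72663044-72663143, plus strand: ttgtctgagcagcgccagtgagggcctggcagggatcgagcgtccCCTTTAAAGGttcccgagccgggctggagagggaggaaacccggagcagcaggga
The boxes begin 161, 227, 204, 146 and 60 bases before the RefSeq start in the order shown. For Robo1 that start lies inside the gene as GENCODE M21 places it, chromosome 16, 72308306 to 73046095, so its window precedes an internal start. Vcl was at 448, 405 and 467 CPM in the controls against 869, 747 and 775 CPM in the knockouts (log2 0.86, SE 0.15, adjusted p = 0.013), with an adjusted p of 0.0555 and 0.0592 without controls 1 and 2. Myl9 (log2 0.99, SE 0.22, adjusted p = 0.0312) lost its call without any library but knockout 1 (adjusted p between 0.0567 and 0.101), and Fermt2 (log2 0.65, SE 0.16, adjusted p = 0.0386) without any but knockout 2 (between 0.0651 and 0.139). A match is a string in a window and not a measured binding site.

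Pericyte and stromal surface genes had the largest share called higher among the lists, 11 of 23, with 1 lower and a median of 0.99. Pdgfrb, the platelet-derived growth factor receptor of mesangial cells and pericytes, was at 74.4, 44.4 and 56.1 CPM in the controls against 229, 244 and 199 CPM in the knockouts (log2 1.94, SE 0.22, adjusted p = 0.00338). Cd248, endosialin of stromal cells, was at 19.4, 17.8 and 19.4 CPM and 81.2, 94.7 and 81.0 CPM (log2 2.18, SE 0.16, adjusted p = 0.0017). Ndufa4l2, a mitochondrial protein abundant in pericytes, was at 1.14, 1.93 and 1.87 CPM and 9.29, 15.7 and 11.4 CPM (log2 2.88, SE 0.33, adjusted p = 0.00348). The 3 genes gave knockout levels well clear of the controls. Dcn, the small proteoglycan decorin, rose from a low level, 0.596, 0.882 and 0.738 CPM, to 5.53, 8.43 and 11.3 CPM (log2 3.51, SE 0.37, adjusted p = 0.00286). Serpinf1, an anti-angiogenic serpin, rose from 1.87, 2.73 and 5.16 CPM to 19.1, 22.2 and 15.0 CPM (log2 2.53, SE 0.39, adjusted p = 0.0084). In library order the count was 9, 9, 11, 11, 8 and 8.

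Matrix genes of every class tested included genes that rose. Of 22 collagens outside basement membranes 6 were higher and none lower, of 24 basement membrane genes 5 and none, of 51 proteoglycans and matricellular proteins 17 and 1, and of 65 matrix proteases, inhibitors and crosslinkers 20 and 3. Col4a1 and Col4a2, the chains of the collagen of mesangial and vascular basement membranes, both rose. Col4a2 was at 367, 290.02 and 332 CPM in the controls against 1061, 1009 and 814 CPM in the knockouts (log2 1.54, SE 0.18, adjusted p = 0.00348), and Col4a1 at 689, 533 and 624 CPM and 1619.6, 1516 and 1269 CPM (log2 1.25, SE 0.17, adjusted p = 0.00641). Of the collagens that coat fibrils, Col14a1 went from 0.415, 0.386 and 0.975 CPM to 8.69, 7.24 and 8.84 CPM (log2 3.79, SE 0.42, adjusted p = 0.00324) and Col12a1 from 77.4, 66.2 and 84.3 CPM to 260.2, 194 and 324 CPM (log2 1.77, SE 0.22, adjusted p = 0.00419). Frem1, a basement membrane protein of developing epithelia, went from 1.30, 0.689 and 0.527 CPM to 6.58, 4.43 and 8.16 CPM (log2 2.93, SE 0.43, adjusted p = 0.00764).

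Sparc, a collagen-binding matricellular protein, was at 2266, 2000.4 and 3595 CPM in the controls against 8950.4, 11276 and 9424 CPM in the knockouts (log2 1.92, SE 0.25, adjusted p = 0.00476). On the authors' FPKM scale, which divides by gene length, Sparc averaged 1020.0 in controls and 3622 in knockouts, and Lox 73.5 and 346, Timp3 92.8 and 346 and Col4a1 96.2 and 215. Fbln5, which helps assemble elastic fibres, rose from 16.6, 18.0 and 21.6 CPM to 102, 106 and 82.5 CPM (log2 2.37, SE 0.19, adjusted p = 0.00231). Bgn, the proteoglycan biglycan, rose from 177, 95.8 and 222 CPM to 1097, 977 and 872 CPM (log2 2.57, SE 0.31, adjusted p = 0.00383). In both, every knockout was several times the highest control. Gpc4, a cell-surface heparan sulfate proteoglycan, rose from 68.3, 67.8 and 75.5 CPM to 194, 185 and 172 CPM (log2 1.38, SE 0.15, adjusted p = 0.00292).

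The enzymes and inhibitors differed by class. Of 19 matrix metalloproteases and inhibitors 6 were higher and 1 lower, of 14 adamalysins 4 and none, of 17 crosslinkers and folding enzymes 8 and none, and of 15 serine proteases and inhibitors 2 and 2, with a median of -0.77. The metalloprotease called lower was Mmp7, made by epithelia, with 52 counts in the controls against 1 in the knockouts, a ratio of 49.1 (exact 95% counting interval 8.43 to 1976), and an adjusted p of 0.0549, 0.0547 and 0.0596 without control 1, knockout 2 and knockout 3. Mmp17, a membrane-bound metalloprotease, went from 4.04, 4.30 and 5.77 CPM to 28.1, 35.8 and 26.4 CPM (log2 2.68, SE 0.23, adjusted p = 0.00241), and Mmp23 from 13.7, 13.2 and 21.5 CPM to 49.2, 70.3 and 53.8 CPM (log2 1.84, SE 0.25, adjusted p = 0.00574). The inhibitor Timp3 went from 446, 333 and 484 CPM to 1466, 1755 and 1787 CPM (log2 1.99, SE 0.20, adjusted p = 0.00272) and Timp2 from 248, 255 and 308 CPM to 599, 602 and 525 CPM (log2 1.09, SE 0.16, adjusted p = 0.00761). Reck, a membrane-anchored inhibitor of metalloproteases, went from 4.15, 2.31 and 3.32 CPM to 10.9, 13.5 and 14.1 CPM (log2 1.98, SE 0.28, adjusted p = 0.00681). Lox, which crosslinks collagen and elastin, was at 300.2, 216 and 513 CPM in the controls against 1657, 1316 and 2158 CPM in the knockouts (log2 2.32, SE 0.34, adjusted p = 0.00748), with an adjusted p of 0.057 without control 1. These genes were higher in every knockout than in any control. Pcolce, which speeds collagen processing, rose from 52.6, 37.9 and 33.0 CPM to 122, 131 and 104 CPM (log2 1.53, SE 0.21, adjusted p = 0.00648), and Adamts10, which binds fibrillin, from 10.3, 11.8 and 12.8 CPM to 28.7, 47.9 and 44.8 CPM (log2 1.80, SE 0.23, adjusted p = 0.00476). Of 40 integrins and adaptors 8 were higher and none lower, among them Itga9, from 11.3, 8.18 and 9.14 CPM to 22.3, 27.4 and 25.6 CPM (log2 1.40, SE 0.20, adjusted p = 0.00709).

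The matrix counts moved with the library left out. In library order the genes called higher numbered 4, 6, 9, 6, 5 and 6 for collagens, 4, 3, 5, 5, 4 and 4 for basement membranes, 6, 7, 11, 14, 7 and 9 for proteoglycans and matricellular proteins, 7, 13, 24, 19, 12 and 15 for proteases and crosslinkers, and 4, 2, 4, 8, 7 and 4 for integrins. Leaving out control 1 or control 2 gave the lowest count in each. Without knockout 1, 2 collagens, 6 basement membrane genes, 4 proteoglycans and matricellular proteins, 13 proteases and crosslinkers and 5 integrins and adaptors were called lower. The lists also differed between knockout libraries. The median of log2(CPM + 1) minus the control mean was 1.13 for collagens in knockout 1, against 0.27 and 0.25 in knockouts 2 and 3, and 0.74 against 0.37 and 0.31 for proteases and crosslinkers. Epithelial lists ran the other way, at -0.66 in knockout 1 against -1.52 and -1.62 for epithelial factors, and at 0.14 against -0.69 and -0.82 for cadherins and desmosomes. Podocyte and contractile lists were closer together, at 0.62, 0.94 and 0.84 and at 0.61, 0.80 and 0.85.

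**Figure D4:**
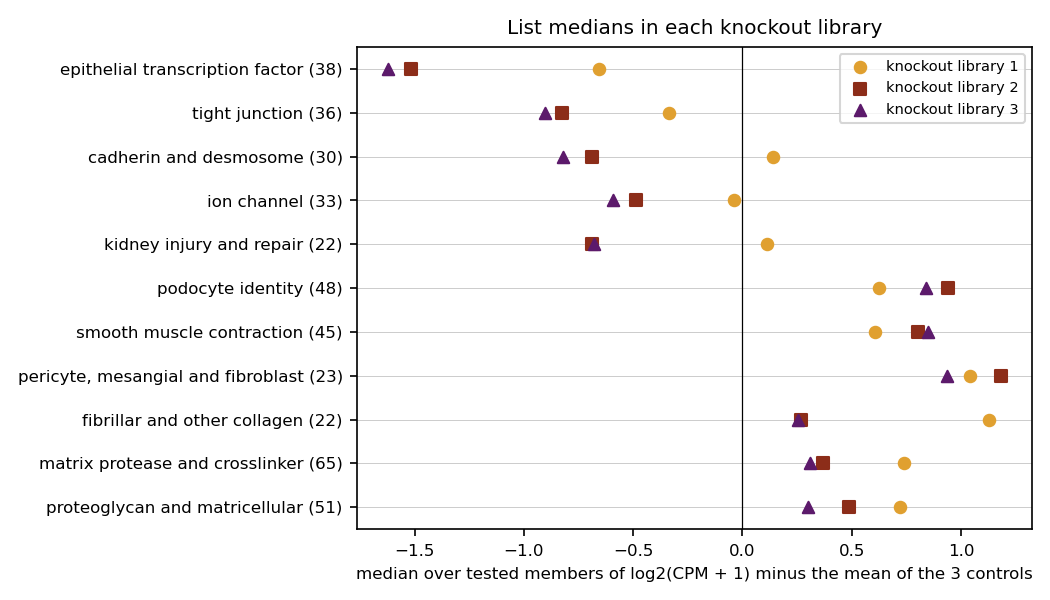
Median over the tested members of 11 gene lists of log2(CPM + 1) in each knockout library minus the mean of the 3 controls, with the number of members in parentheses. Knockout 1 lies nearer to 0 than knockouts 2 and 3 in the epithelial lists and farther from it in the 3 matrix lists at the bottom.

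In the Wnt pathway the calls among receptors and modulators were all higher and those among ligands were mixed. Of 27 receptors and modulators 9 were called higher and none lower. Lgr4, which amplifies Wnt signals when R-spondin binds, was at 55.0, 32.3 and 47.4 CPM in the controls against 165, 124 and 160.2 CPM in the knockouts (log2 1.74, SE 0.23, adjusted p = 0.00557). Fzd2, a Wnt receptor, was at 37.7, 31.6 and 45.8 CPM and 107, 117 and 91.0 CPM (log2 1.45, SE 0.20, adjusted p = 0.00557), and Ror1, a receptor of Wnt5a, at 15.0, 7.55 and 9.46 CPM and 36.3, 36.2 and 49.9 CPM (log2 1.94, SE 0.29, adjusted p = 0.00753). Of 12 ligands, Wnt9a was 1 of 2 called lower and fell from 58.4, 64.7 and 60.8 CPM to 15.4, 9.39 and 9.04 CPM (log2 -2.44, SE 0.24, adjusted p = 0.00272). Wnt5b, a ligand of the branch without beta-catenin, was the ligand called higher and rose from 5.70, 4.49 and 5.90 CPM to 13.4, 17.5 and 14 CPM (log2 1.48, SE 0.23, adjusted p = 0.00832). The whole Wnt list had 12 of 55 higher and 2 lower, and in library order 5, 6, 10, 10, 7 and 5 higher and 1, 1, 1, 9, 1 and 1 lower.

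The ligands of the transforming growth factor and bone morphogenetic protein family moved in both directions while none of the 12 receptors was called. Bmp4 rose from 21.6, 9.18 and 17.0 CPM to 93.2, 144 and 113 CPM (log2 2.87, SE 0.33, adjusted p = 0.00355). Bmp7, which maintains nephron progenitors and is made by epithelia, fell from 21.9, 21.1 and 24.7 CPM to 10.0, 8.17 and 6.68 CPM (log2 -1.44, SE 0.22, adjusted p = 0.00766). The groups of both ligands were apart. Tgfb3 rose from 78.3, 53.5 and 80.0 CPM to 245, 319.7 and 276 CPM (log2 1.99, SE 0.21, adjusted p = 0.0029) and Tgfb2 from 46.8, 41.8 and 45.1 CPM to 99.2, 85.4 and 104 CPM (log2 1.11, SE 0.16, adjusted p = 0.0066). Fstl1, a secreted binder of these ligands, rose from 280.4, 261 and 476 CPM to 1048, 1083 and 1074 CPM (log2 1.66, SE 0.25, adjusted p = 0.00761), and Smad9, a mediator of bone morphogenetic proteins, from 0.389, 0.0551 and 0.158 CPM to 2.35, 3.60 and 3.67 CPM (log2 3.97, SE 0.62, adjusted p = 0.00902). In all 8 of 49 were higher and 4 lower, and in library order 5, 5, 7, 7, 6 and 6 higher and 1, 2, 3, 7, 2 and 2 lower.

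Other growth factors had single genes that stood out. Igfbp3, a carrier of insulin-like growth factors, rose from 24.4, 28.9 and 32.7 CPM to 97.3, 119 and 105 CPM (log2 1.90, SE 0.18, adjusted p = 0.00272). Vegfd, a ligand of vascular and lymphatic receptors, rose from 1.11, 1.05 and 0.764 CPM to 5.20, 10.8 and 10.0 CPM (log2 3.15, SE 0.37, adjusted p = 0.00383), whereas Vegfa, the podocyte's main factor for the glomerular endothelium, was level at 171, 147 and 161 CPM and 159.8, 159 and 160.5 CPM (log2 0.00, SE 0.14, adjusted p = 0.999). Tgfa, a ligand of the epidermal growth factor receptor, fell from 24.7, 19.1 and 17.2 CPM to 6.64, 3.63 and 3.13 CPM (log2 -2.18, SE 0.33, adjusted p = 0.00797), with an adjusted p of 0.0523 without control 1. Of 74 growth factors and kinase receptors 9 were higher and 4 lower, and in library order 4, 4, 8, 7, 6 and 3 higher and 0, 1, 2, 9, 1 and 1 lower. Lfng, which modifies Notch receptors, was the only called gene of 19 in the Notch list, at 20.3, 14.2 and 21.1 CPM in the controls against 50.5, 54.7 and 44.3 CPM in the knockouts (log2 1.43, SE 0.20, adjusted p = 0.00662), and without knockout 1, 5 Notch genes were called lower.

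Axon guidance genes, several of which shape foot processes and the ureteric bud, had 8 of 56 called higher and none lower. Robo2, a Slit receptor that couples to nephrin through an adaptor, was at 15.3, 8.49 and 10.9 CPM in the controls against 53, 35.8 and 68.9 CPM in the knockouts (log2 2.18, SE 0.31, adjusted p = 0.00648). Robo1 was at 16.1, 14.9 and 15.5 CPM and 35.6, 29.5 and 37.0 CPM (log2 1.13, SE 0.17, adjusted p = 0.00766). The ligand Slit2 was at 8.84, 5.76 and 5.95 CPM and 9.54, 8.97 and 14 CPM, with groups narrowly apart, and did not pass (log2 0.66, SE 0.28, adjusted p = 0.191). The count of 8 was 3, 2, 4, 7, 6 and 3 in library order, and without knockout 1, 8 guidance genes were called lower.

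Calls among complement genes were all higher, while several inflammatory cytokines fell. Of 20 complement genes 5 were called higher and none lower. C1ra, a protease of the first component, rose from 3.11, 3.06 and 5.06 CPM to 20.5, 32.6 and 26.9 CPM (log2 2.83, SE 0.29, adjusted p = 0.0028), and its inhibitor Serping1 rose with it, from 18.4, 8.79 and 17.6 CPM to 77.7, 72.4 and 61.7 CPM (log2 2.24, SE 0.29, adjusted p = 0.00476). Complement calls in library order numbered 4, 4, 5, 6, 4 and 4. Of 43 interferon and antigen presentation genes 4 were higher and none lower, with H2-T23, a nonclassical class I molecule, at 31.9, 38.0 and 40.4 CPM in the controls against 69.0, 87.0 and 79.4 CPM in the knockouts (log2 1.09, SE 0.17, adjusted p = 0.00932). That count was 2, 3, 5, 6, 2 and 2.

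Of 73 chemokines, cytokines and receptors 9 were higher and 13 lower. The genes called lower were mostly ligands: 6 of 21 interleukins and family members, 3 of 10 CXC chemokines and 2 of 10 CC chemokines. Lif, a cytokine of the interleukin 6 family, fell from 91.1, 98.1 and 76.1 CPM to 24.8, 12.3 and 11.6 CPM (log2 -2.45, SE 0.32, adjusted p = 0.00476). Il24 had 1029 counts in the controls and 3 in the knockouts, a 324-fold ratio whose exact 95% counting interval runs from 110.5 to 1573 (log2 -8.18, SE 0.79, adjusted p = 0.00272, where the fitted value is no bound). Csf3, which drives neutrophil formation, fell from 8.17, 11.5 and 4.90 CPM to 1.02, 0.284 and 0.597 CPM (log2 -3.68, SE 0.53, adjusted p = 0.00702). All 3 were far below any control in every knockout. Cxcl2, a neutrophil chemokine, had 8.97, 7.14 and 1.5 CPM in the controls against 0.138, 0 and 0.0284 CPM in the knockouts (log2 -6.62, SE 1.01, adjusted p = 0.00826), and Cxcl16, a membrane-bound chemokine, 112, 225 and 129.8 CPM and 39.6, 38.5 and 32.7 CPM (log2 -2.08, SE 0.28, adjusted p = 0.0054). In every one of these the controls lay above the knockouts.

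Among receptors more genes rose than fell, with 5 of 26 cytokine receptors higher and 2 lower. Il6st, the shared signal subunit for Lif and interleukin 6, rose from 147, 148 and 157 CPM to 386, 443 and 433 CPM (log2 1.48, SE 0.15, adjusted p = 0.00272). Fas, the death receptor, rose from 6.92, 7.19 and 8.38 CPM to 25.6, 26.2 and 31.1 CPM (log2 1.88, SE 0.19, adjusted p = 0.00272). The ligands called higher were Cx3cl1 and Ccl17. Cx3cl1, a membrane-anchored chemokine, rose from 40.0, 23.2 and 21.8 CPM to 119, 126 and 100.04 CPM (log2 2.02, SE 0.26, adjusted p = 0.00485), and Ccl17, a T cell chemokine, from 0.726, 1.13 and 0.870 CPM to 3.02, 6.78 and 4.72 CPM (log2 2.41, SE 0.40, adjusted p = 0.0105), with an adjusted p of 0.0549 without control 1. In library order the list had 4, 5, 7, 9, 6 and 5 genes higher and 9, 8, 13, 15, 9 and 9 lower. The 6 leukocyte markers summed to 11.7, 15.0 and 93.1 CPM in the controls against 32.6, 25.4 and 14.6 CPM in the knockouts, which overlap.

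The AP-1 motif TGANTCA, bound by Fos and Jun factors, was searched on both strands in the same promoters. It lay in 71 of 571 called-lower genes with a promoter (12.4%), in 9.57% of those called higher, in 6.76% of all genes tested and in 8.97% of all promoters. Among called-lower genes of the cytokine list 4 of 10 held it, Lif, Il5ra, Ppbp and Il1rn, and their windows are shown with the motif in capitals, 5′ to 3′ on the strand of the gene, to place it against the start.
Lif, chr11:4257318-4257391, plus strand: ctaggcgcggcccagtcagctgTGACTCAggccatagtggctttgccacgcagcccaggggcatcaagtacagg
Il5ra, chr6:106749085-106749181, minus strand: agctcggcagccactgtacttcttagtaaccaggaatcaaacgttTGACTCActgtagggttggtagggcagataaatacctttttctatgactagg
Ppbp, chr5:90768269-90768365, plus strand: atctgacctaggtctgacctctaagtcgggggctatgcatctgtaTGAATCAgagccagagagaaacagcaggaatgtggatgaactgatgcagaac
Il1rn, chr2:24336674-24336770, plus strand: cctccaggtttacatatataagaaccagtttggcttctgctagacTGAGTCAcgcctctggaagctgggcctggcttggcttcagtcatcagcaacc

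The motifs begin 228, 99, 204 and 141 bases before the start in the order shown. Lif is described above. Il5ra, a subunit of the interleukin 5 receptor, had 2760 counts in controls and 2 in knockouts, a ratio of 1303 whose exact 95% counting interval runs from 360.4 to 10770.0. Ppbp, a platelet chemokine, was at 49.8, 68.0 and 24.4 CPM in the controls against 0.443, 0 and 0.0284 CPM in the knockouts, and Il1rn, the antagonist of the interleukin 1 receptor, at 35.3, 37.4 and 22.2 CPM and 16.1, 14.4 and 14.3 CPM. Il1rn (log2 -1.08, SE 0.23, adjusted p = 0.0243) kept its call without control 3 or knockout 1, with adjusted p between 0.0779 and 0.108 without the others.

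The remaining motifs were searched in the same way. The grainyhead motif AACCNGTT lay in 1.69% of called-higher, 3.68% of called-lower and 2.17% of all tested genes. The TEAD motif GGAATG, bound by the partners of Yap1 and Wwtr1, lay in 16.7%, 19.4% and 14.8%. The HNF1 motif lay in 1 of 533, 0 of 571 and 1 of 11560 genes (0.188%, 0.0% and 0.00865%), so its shares rest on 1 gene. Overlaps between motifs were not removed, and the shares are descriptions without a test. Of 28 immediate early genes, those of AP-1 among them, none was called higher and 2 lower, Fosl1 and Myc. Fosl1 lost its call without any library but knockout 1 (adjusted p between 0.088 and 0.145) and Myc without all but control 3 and knockout 1 (between 0.0787 and 0.123).

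The series' title names Hippo signalling, the kinase cascade that restrains Yap1 and Wwtr1. Of 57 genes tested 6 were higher and 3 lower, with a median of 0.22, and of 18 targets of Yap1 and Wwtr1 4 were higher and 2 lower. Over all genes tested 4.79% were called higher and 5.13% lower, so the share of the whole list called lower is near the background. Igfbp3 and Tgfb2, described above, are called members of this list and are counted in other lists too. Ccn2 was also called higher, and its calls with a library left out are not given here. The coactivators themselves were not called, with Yap1 at 173, 156 and 147 CPM in the controls against 194, 211 and 188 CPM in the knockouts (log2 0.32, SE 0.15, adjusted p = 0.229). In library order 5, 2, 4, 6, 4 and 2 genes were higher and 0, 0, 3, 6, 0 and 0 lower.

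Of 64 vasoactive ligands, enzymes and receptors 11 were called higher and 5 lower. P2ry14, a receptor for nucleotide sugars, rose from 17.0, 17.2 and 24.2 CPM to 54.5, 83.8 and 77.2 CPM (log2 1.88, SE 0.23, adjusted p = 0.00419), and P2rx1, an ATP-gated channel of smooth muscle, from 5.55, 6.47 and 7.04 CPM to 27.2, 81.7 and 66.7 CPM (log2 3.20, SE 0.39, adjusted p = 0.00411). Knockout 1 had the lowest knockout level of both, above all controls. The counts were 3, 4, 5, 11, 2 and 3 higher and 0, 2, 5, 10, 2 and 1 lower in library order. Of 33 ion channels 6 were lower and 1 higher. Trpc4, a cation channel, rose from 0.389, 1.02 and 0.659 CPM to 3.02, 5.70 and 6.37 CPM (log2 2.86, SE 0.47, adjusted p = 0.0103), while Trpc6, the channel mutated in some hereditary podocyte disease, was at 1.30, 0.579 and 1.37 CPM and 0.996, 0.766 and 1.48 CPM (log2 0.00, SE 0.46, adjusted p = 0.998).

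Kcnj1, a potassium channel of the loop and collecting duct, was among the channels that fell, with 84 counts in the controls against 1 in the knockouts, a ratio of 79.3 whose exact 95% counting interval runs from 13.9 to 3170.0. Channels called lower numbered 2, 2, 5, 10, 2 and 2 in library order. Of 27 tubule transport genes 5 were lower and 1 higher, and in library order 2, 2, 4, 7, 2 and 2 were lower and none was higher. Car2, a carbonic anhydrase of the collecting duct and other cells, fell from 42.1, 55.0 and 43.3 CPM to 16.9, 15.9 and 14.6 CPM (log2 -1.57, SE 0.18, adjusted p = 0.00333). The markers of the proximal tubule summed to 17.3, 11.5 and 11.1 CPM in the controls against 9.68, 3.24 and 6.97 CPM in knockouts.

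Of 22 markers of kidney injury 6 were called lower and 2 higher, and the falls included the best known. Havcr1, kidney injury molecule 1, was at 324, 294 and 272 CPM in the controls against 16.5, 6.70 and 9.36 CPM in the knockouts (log2 -4.77, SE 0.35, adjusted p = 0.0017). Lcn2, the injury marker neutrophil gelatinase-associated lipocalin, was at 471, 683 and 682 CPM and 83.6, 20.5 and 15.4 CPM (log2 -3.94, SE 0.65, adjusted p = 0.0103), with an adjusted p of 0.0527 without control 1. Both were abundant in the controls and low in every knockout. Msln, a surface protein of mesothelium, fell from 62.9, 90.01 and 41.8 CPM to 4.48, 1.70 and 0.796 CPM (log2 -4.80, SE 0.62, adjusted p = 0.00476). The count of injury markers called lower was 2, 4, 6, 8, 4 and 5 in library order, and of those higher 1, 0, 1, 2, 0 and 0. The parietal marker sum was lower in the same libraries.

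Of 43 genes in the cell cycle list, which leaves out Cdkn1c, only Ccnd1, the cyclin that admits cells to the cycle, was called. Without knockout 1, 3 others were called higher. Ccnd1 was at 1034, 1619 and 695 CPM in the controls against 189, 139 and 127 CPM in the knockouts (log2 -2.88, SE 0.33, adjusted p = 0.00348). The proliferation marker Mki67 was at 29.9, 19.4 and 39.1 CPM and 33.7, 14.4 and 36.8 CPM, with overlapping groups (log2 -0.06, SE 0.38, adjusted p = 0.951). Of 47 p53 and apoptosis genes 6 were lower and 2 higher. Mdm2, the ligase that degrades p53 and is itself a p53 target, fell from 358, 419 and 382 CPM to 201, 179 and 213 CPM (log2 -0.97, SE 0.15, adjusted p = 0.00948). Of the 23 genes of the p53 pathway 20 had a log2 value below 0, and the median was -0.40. In library order the p53 and apoptosis genes called lower numbered 2, 4, 6, 9, 4 and 3.

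Metabolic genes moved one by one. Lpl, which releases fatty acids from lipoproteins, rose from 40.3, 38.9 and 41.3 CPM to 99.9, 155 and 212 CPM (log2 1.95, SE 0.27, adjusted p = 0.00582). Hadha, of mitochondrial fatty acid oxidation, fell from 116, 132 and 105 CPM to 57.6, 54.0 and 40.5 CPM (log2 -1.22, SE 0.19, adjusted p = 0.00901). Both had separate groups. The lipid and glucose list as a whole had 6 of 89 higher and 8 lower, somewhat above the 4.79% and 5.13% of all genes tested. In library order 2, 3, 3, 4, 3 and 2 were higher and 3, 2, 6, 9, 2 and 2 lower.

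In retinoid metabolism, Dhrs3, which converts retinaldehyde back to retinol, fell from 20.7, 25.9 and 33.7 CPM to 2.71, 3.92 and 3.73 CPM (log2 -2.95, SE 0.27, adjusted p = 0.00259). Aldh1a3, which makes retinoic acid, rose from 20.2, 11.7 and 28.4 CPM to 78.1, 82.7 and 79.6 CPM (log2 1.99, SE 0.30, adjusted p = 0.00803), with an adjusted p of 0.0546 without control 1. Rarres2, the adipokine chemerin, rose from 1.87, 2.76 and 1.95 CPM to 7.33, 14.5 and 12.6 CPM (log2 2.39, SE 0.34, adjusted p = 0.00648). Slc6a6, the taurine transporter, was at 927, 434 and 498 CPM in the controls against 2763, 3493 and 3059 CPM in the knockouts (log2 2.32, SE 0.30, adjusted p = 0.00476), and Cdo1, which opens the path from cysteine to taurine, rose from 3.37, 4.82 and 4.77 CPM to 38.0, 131 and 101 CPM (log2 4.38, SE 0.46, adjusted p = 0.0029). The list of retinoid, steroid and xenobiotic genes had 7 of 35 higher and 3 lower, and in library order 3, 5, 7, 8, 5 and 5 higher and 2, 1, 2, 6, 1 and 1 lower.

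Several groups had no more than a few calls in either direction, while 4.79% of all genes tested were called higher and 5.13% lower. Of 24 nuclear genes of oxidative phosphorylation 1 was lower and of 18 endothelial genes 1 was higher. Of 52 stress genes 3 were higher and 4 lower, somewhat above both shares. Among 20 ribosomal protein genes none was called by edgeR, although all 20 had a log2 value below 0 and their median was -0.44. Rpl32 was at 726, 1106 and 916 CPM in the controls against 524, 635 and 593 CPM in the knockouts (log2 -0.65, SE 0.19, adjusted p = 0.0745), and without control 1, 3 of the 20 were called lower, as were 4 by DESeq2. Ribosomal protein genes share reads with many pseudogenes, so these levels are uncertain.

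**Figure D5:**
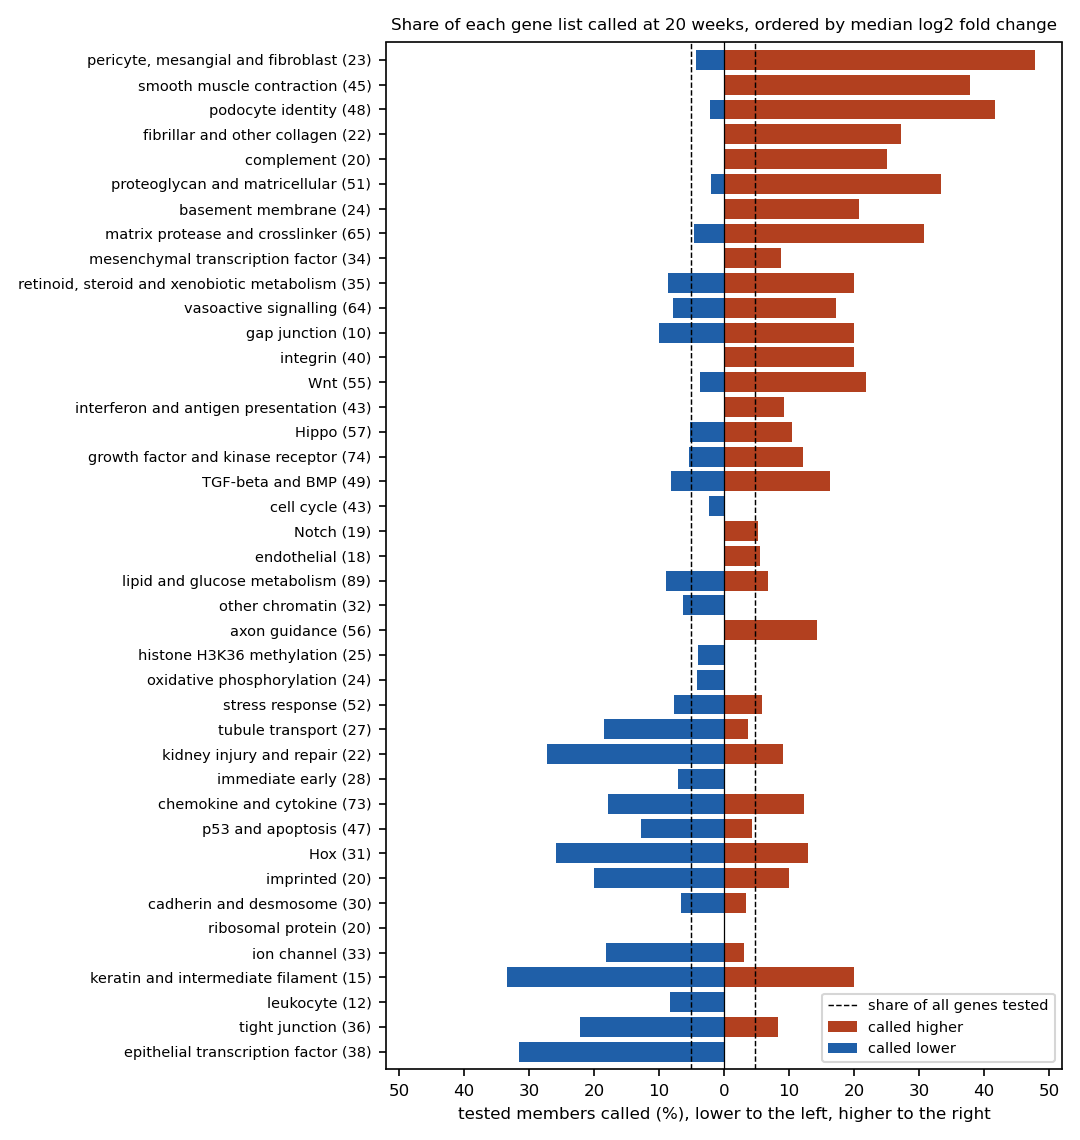
Share of the tested members of each list of at least 10 genes called higher (right) and lower (left) in the knockouts, ordered by the list's median log2 fold change, with the number tested in parentheses. Dashed lines mark the shares over all genes tested, 4.79% higher and 5.13% lower.

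At 28 weeks, in separate libraries of the same genotypes, 3183 genes were called. Of the 1473 genes called at 20 weeks 1433 were tested there: 1379 had the same sign, 696 were called in the same direction and 0 in the opposite direction. The matching shares over all genes are not given here, so these counts have no background to be judged against. The knockout effects at the ages were compared in 1 edgeR model of all 12 libraries over 15662 genes, and 0 genes differed at an adjusted p below 0.05, with 1428 at an unadjusted p below 0.05 and 27 by DESeq2. Age coincides with the deposited table, so handling and age cannot be told apart in this comparison. Some genes had close values: the log2 values at 20 and 28 weeks were -2.45 and -2.37 for Lif, -2.44 and -2.41 for Wnt9a, 2.87 and 2.46 for Bmp4 and -2.95 and -2.98 for Dhrs3, all called at both ages. These podocyte genes were called at 20 and not at 28 weeks, with 2.45 and 1.33 for Clic5, 1.65 and -0.24 for Dag1 and 1.89 and 0.17 for Sema3g, and for none of them did the difference between the ages pass. Hoxb4 and Hoxb9 were called at both ages (-1.55 and -1.19, -1.09 and -1.08), while Hoxb2 and Hoxb6 were not called at 28 weeks (-0.77 and -0.94).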

How the data were processed

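RNA-seq of primary podocytes was used as gene counts per library, which the authors deposited together with FPKM values (fragments scaled to gene length and depth) in 1 table per age, per the file headers. The builds GRCm38 and mm10 are named in the submitters' processing notes, while aligner, counter, strand setting and annotation remain unstated, not given in the sources used here. Libraries were made with a SMARTER mRNA-Seq kit from 1.3 ug of RNA and carry the same batch label, per the labels.

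Counts were tested with edgeR 4.0.16 in R 4.3.3 (filterByExpr, TMM scaling, quasi-likelihood F-test, Benjamini-Hochberg adjustment over all genes tested), in the 6 libraries without covariates. The adjusted p-values in the text come from that test unless another tool is named. DESeq2 1.42.0 and limma 3.58.1 (voom) served as alternatives, beside other scalings, filters and call rules, a model of 12 libraries, and each library left out in turn. The FPKM values served only as levels per gene length. On counts simulated for this comparison with 14658 genes, the test called 15 of 66 genes changed 2-fold, 66 of 67 changed 4-fold, 67 of 67 changed 8-fold and 5 of 14458 unchanged ones. Every simulated gene had the same spread beyond counting error, no library stood apart, and only genes of at least 5 CPM were changed. These rates therefore do not carry over to low-level genes or to libraries that differ as knockout 1 does. At a count of 0 the limit is 3 counts, and intervals on ratios of counts are exact at 95%; all cover counting error only. Same-numbered libraries did not consistently deviate together (correlations of -0.083, 0.42 and -0.104), so the numbers were not taken as pairs. Some libraries of different number deviated as strongly, at 0.46 for control 3 with knockout 1 and -0.46 for control 2 with knockout 1. A factor shared across the genotypes is not labelled and was not tested.

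The comparison, the 43 gene lists and the rule for named genes were chosen with earlier results of these data known. The rule takes Nsd2, the 20 highest and 20 lowest fold changes among called genes of at least 5 CPM without overlap, the 8 called genes of highest CPM in each direction, up to 4 called genes of smallest p in each list (up to 2 uncalled ones where none was called) and 11 podocyte and Hippo genes, and the text may leave some out. Named outside this rule, after their values were seen, were Hoxb3, Hoxb5, Hoxb7, Hoxb8, Hoxa10, Hoxa11, Hoxc8, Hoxc9, Hoxb5os, Hoxb3os, Grhl2, Ehf, Zeb1, Zeb2, Snai1, Snai2, Twist1, Dag1, Sema3g, Gucy1a1, Rgs4, Myocd, Myl9, Fermt2, Serpinf1, Lox, Timp2, Reck, Pcolce, Wnt5b, Bmp7, Smad9, Vegfa, Slit2, Lif, Csf3, Cxcl2, Cxcl16, Cx3cl1, Ccl17, Il1rn, Trpc6, Mki67 and Aldh1a3. Promoter windows are from RefSeq, and a promoter was found for 11560 of the genes tested.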

Additional observations from a re-analysis of the deposited data

How the results depend on the processing

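Counts of genes called higher and lower, 711 and 762, stayed within 1.5 times of these values under RLE scaling (714 and 741), upper-quartile scaling (645 and 812), no filter (770 and 901), a 1 CPM filter (619 and 615), limma-voom (786 and 951), the 12-library model (745 and 997) and a 2-fold minimum (500 and 673). They were 1207 and 1224 with DESeq2, and 186 and 197 at an adjusted p below 0.01. With each library left out in turn they ranged from 262 to 780 higher and from 255 to 1243 lower, and fewer samples were fitted there. With the replicate block they were 520 and 644, and the numbers were not taken as pairs. Genes whose knockout effect differed between the ages numbered 0 with edgeR, 0 with the replicate block and 27 with DESeq2; the cause was not tested. Of the 171 called genes that the naming rule gives none reversed its direction under these settings where it was tested. The call itself was lost by 31 in the 12-library model and 15 with the replicate block. With a library left out it was lost by between 3 (knockout 1) and 52 (control 1). In the 12-library model podocyte genes called higher fell from 20 to 6 and tight junction genes called lower from 8 to 3, while complement genes called higher went from 5 to 7. Genes named outside the rule were recomputed only with a library left out. Depth was not varied.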
